A study of Danio rerio with 6 samples.

Results

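Receptors that endothelial cells and phagocytes use to bind and take up hyaluronan and spent macromolecules were followed, with the clathrin adaptor Dab2, in vascular cells of the zebrafish embryo sorted by NF-kB reporter activity. The genes were chosen by name as lyve1a, lyve1b, stab1, stab2, mrc1a, dab2 and marco, and 5 of these 7 names were among the 2471 genes analysed. Those 5 were lyve1a, lyve1b, stab1, stab2 and dab2, and they were taken here as the venous side, lyve1a by its family alone. The mannose receptor gene mrc1a and the macrophage scavenger receptor gene marco were not analysed here, so that no phagocyte receptor of the set could be placed beside them and markers of phagocytes were used for that side.

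All cells came from 1 cross at 22 hours post fertilization (hpf) that carried 2 reporters in every group, NFKB:d2eGFP, a destabilized green fluorescent protein read out as NF-kB activity, and kdrl:mCherry, a red protein made under control of the VEGF receptor gene kdrl. Trunk cells positive for kdrl:mCherry were sorted as NFKB+ or NFKB-, at about 7000 cells for each of 3 libraries per sort, and the design text relates the comparison to the specification of blood stem and progenitor cells by endothelium. Neither sort was treated, and NF-kB itself was not altered. The reporter defines the sorts, so a difference below goes with fluorescence at the time of sorting and not with a manipulation of NF-kB.

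Hyaluronan is a long sugar polymer of the extracellular matrix, and its turnover depends on receptors that bind it through a link domain and carry it into the cell. LYVE1 is such a receptor of lymphatic and venous endothelium. The stabilins are large scavenger receptors of sinusoidal and venous endothelium. Between them they remove hyaluronan, modified lipoproteins and other anionic particles. Dab2 links the tails of cargo receptors to clathrin-coated pits. In zebrafish, lyve1b, stab1, stab2, mrc1a and dab2 are used as markers of venous endothelium before lymphatic vessels form, whereas marco marks macrophages.

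The deposited genes had been filtered by the authors at 2-fold and an adjusted p of 0.01 on the same libraries. Every gene analysed therefore differed between the sorts beforehand, and the tests of the plain difference below describe its size and error and are no independent evidence for it. Tests relative to other endothelial genes, given further below, used the same libraries and the same filtered genes. Their p-values are not independent of that selection either. Levels are log2 of normalized reads plus 1, and a difference is the mean of the NFKB+ libraries minus the mean of the NFKB- libraries. Libraries are named by the running column numbers, 1 to 3 for NFKB+ and 4 to 6 for NFKB-. Between 8393815 and 15165090 reads per library fell on the genes analysed. Transcripts of kdrl were abundant in both sorts, at 15.04 ± 0.041 in NFKB+ and 13.84 ± 0.26 in NFKB- libraries (SD, n = 3 each). Those of the endothelial cadherin gene cdh5 lay at 15.57 ± 0.037 and 14.00 ± 0.19. The 5 globin genes in the table took 7.34% ± 0.588 of its reads in NFKB+ and 39.1% ± 2.90 in NFKB- libraries (SD, n = 3 each). In sorted bulk RNA of this kind, fewer venous cells and less RNA per venous cell cannot be told apart.

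All 5 genes that had passed the authors' filter were higher in NFKB+ than in NFKB- cells. For 4 of them the excess reached 4-fold, and their order by size was lyve1b, stab2, dab2, stab1 and lyve1a. Of these, stab1 sat on that limit, at 4.02-fold from log means and 3.98-fold as a ratio of mean normalized reads. With median-ratio scaling none of the 5 reached it, lyve1b lying at 1.92 on the log2 scale. That scaling was computed from the filtered genes alone and moved their median log2 difference by -0.88, so its values depend on the authors' selection. Of all genes analysed, 54.5% were higher in NFKB+ cells at a limma adjusted p under 0.05, 45.5% were lower, and 9.43% were higher by 4-fold or more. The groups did not overlap for any of the 5 genes, but this held for 99.6% of the table. The median log2 difference was 2.31 over the 5 genes and 1.08 over all genes analysed.

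The hyaluronan receptor gene lyve1b (NCBI Gene 564249) had the largest excess of the 5. Its level was 14.14, 14.26 and 14.15 in NFKB+ libraries 1, 2 and 3, and 11.74, 11.20 and 11.22 in NFKB- libraries 4, 5 and 6. The NFKB+ libraries lay close together, and library 4 stood above the other NFKB- libraries. The log2 difference was 2.80 ± 0.13 (SE), a 6.96-fold excess (95% interval on the log2 scale 2.51 to 3.08; limma adjusted p = 9.33e-11). It ranked 53rd of the 2471 genes by excess in NFKB+ cells. The log2 fold change in the authors' deposited table was 2.76.

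Its paralogue lyve1a (Gene 560618), annotated as a hyaluronan receptor of the same family, had a smaller excess and a wider spread between libraries. Its level was 8.31, 7.81 and 8.45 in NFKB+ libraries 1 to 3, and 7.58, 6.30 and 6.50 in NFKB- libraries 4 to 6. Libraries 2 and 4 came within 0.23 of each other without crossing. The log2 difference was 1.40 ± 0.33 (SE), or 2.63-fold (95% interval 0.70 to 2.10; limma adjusted p = 7.62e-04), and the gene ranked 771st. The call was lost with median-ratio scaling over the filtered genes, at 0.52 ± 0.33, and with scaling to kdrl, at 0.20 ± 0.31 (SE). The gene rested on 304, 187 and 543 reads in NFKB+ libraries and on 169, 81 and 82 in NFKB- libraries. Counting error alone came to 0.16 on the log2 scale at 81 reads, against an SD of 0.69 between NFKB- libraries. The authors' deposited table gave lyve1a a log2 fold change of 1.24 at an adjusted p of 6.39e-04.

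Both stabilin genes were higher in NFKB+ cells, stab2 by more than stab1. The level of stab2 (Gene 565194), the main hyaluronan clearance receptor of sinusoidal endothelium in mammals, was 15.95, 16.05 and 15.96 in NFKB+ and 13.78, 13.44 and 13.36 in NFKB- libraries. It was 5.51-fold higher in NFKB+ cells, with a log2 difference of 2.46 ± 0.12 (SE; limma adjusted p = 1.22e-10). The lowest NFKB+ library lay 2.17 above the highest NFKB- library, and library 4 was again the highest on the NFKB- side. The level of stab1 (Gene 570626), which in mammals is made by sinusoidal endothelium and by some macrophages, was 13.31, 13.35 and 13.41 in NFKB+ and 11.62, 11.30 and 11.13 in NFKB- libraries. It was 4.02-fold higher, with a log2 difference of 2.01 ± 0.12 (SE; limma adjusted p = 9.05e-10).

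The adaptor gene dab2 (Gene 404040), needed in zebrafish for vein-derived sprouting under BMP signals, had the tightest values of the 5. Its level was 15.91, 15.98 and 15.91 in NFKB+ and 13.76, 13.57 and 13.54 in NFKB- libraries. It was 4.95-fold higher in NFKB+ cells, with a log2 difference of 2.31 ± 0.11 (SE; limma adjusted p = 7.11e-11). The SD of dab2 was 0.040 in NFKB+ and 0.12 in NFKB- libraries, against 0.33 and 0.69 for lyve1a.

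**Figure D1:**
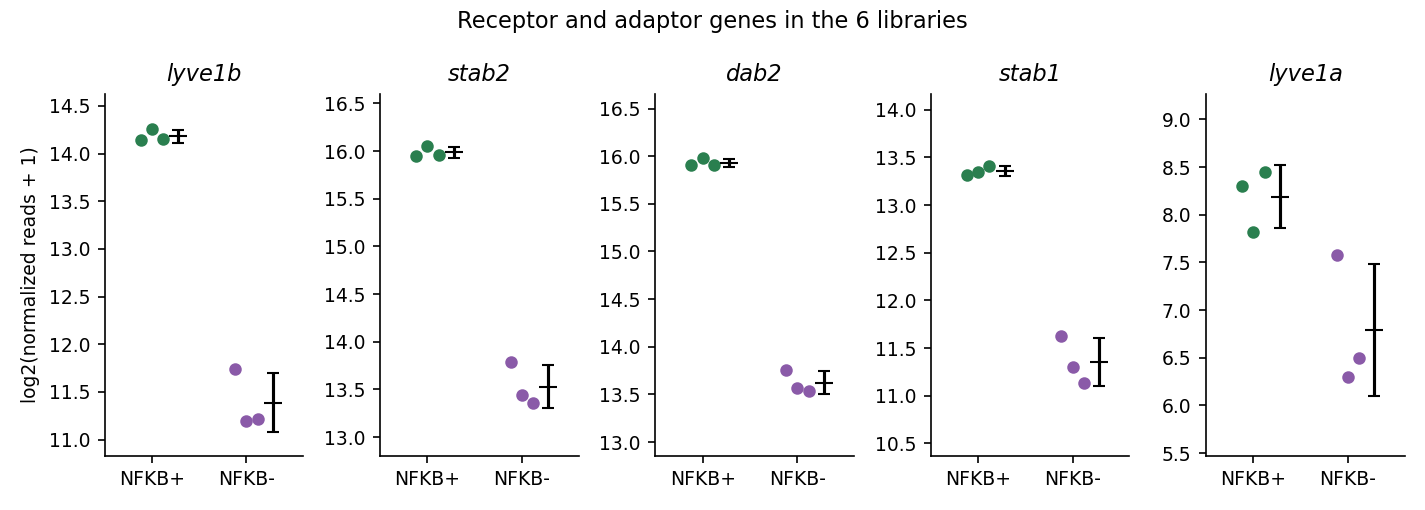
Level of each gene, log2(normalized reads + 1), in the 3 NFKB+ (green) and 3 NFKB- (purple) libraries; bars show the mean and SD, and each panel spans the same height on the log2 scale. The NFKB+ points of lyve1b, stab2, dab2 and stab1 lie close together about 2.01 to 2.80 above the NFKB- mean, while those of lyve1a are spread and come near NFKB- library 4.

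NFKB- library 4 was the highest of the NFKB- libraries for all 5 genes. It was also the highest for 18 of the 19 pan-endothelial genes analysed and for 883 of the 1347 genes that were higher in NFKB+ cells, but for 135 of the 1124 lower genes. Globins took 35.9% of its table reads, against 39.7% and 41.7% in libraries 5 and 6. Without library 4 the log2 difference was 2.98 for lyve1b and 1.79 for lyve1a, in place of 2.80 and 1.40.

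Within each library, the ratio between 2 of the genes cancels the scaling of that library. Of the 10 pairs, 9 had ratios whose ranges did not overlap between the sorts, each with an exact two-sided permutation p of 0.1, the smallest that 3 against 3 libraries allow (0.111 after Benjamini-Hochberg adjustment over the 10 pairs). These tests therefore could not reach 0.05. Among all pairs of genes that were higher in NFKB+ cells, 40.2% had ratio ranges that did not overlap. The 10 pairs share genes and are not independent. The excess of lyve1b in NFKB+ cells was greater than that of lyve1a by 1.40 on the log2 scale, with the log2 ratio of lyve1b to lyve1a between 5.70 and 6.45 in NFKB+ and between 4.16 and 4.90 in NFKB- libraries. The excess of stab2 was greater than that of stab1 by 0.46, with a log2 ratio of 2.63 ± 0.080 against 2.18 ± 0.041 (SD, n = 3 each). The excess of lyve1b was greater than that of stab2 by 0.34. That of stab2 was greater than that of dab2 by 0.15, with ratios from 0.048 to 0.078 in NFKB+ and from -0.18 to 0.025 in NFKB- libraries. The pair whose ranges overlapped was stab1 and lyve1a (exact permutation p = 0.2).

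Relative to the mean of the pan-endothelial genes analysed, lyve1b, stab2, dab2 and stab1 were still higher in NFKB+ cells, and lyve1a did not differ detectably. For this comparison the mean level of 19 pan-endothelial genes, none of which is among the 5, was subtracted in each library. They were the genes analysed of 30 listed, 18 of them higher and 1, tal1, lower in NFKB+ cells. The mean thus rests only on genes that had passed the authors' filter, and the remaining differences depend on that selection. With tal1 left out of the list they were lower than those below. They were then 1.21 for lyve1b, 0.87 for stab2, 0.72 for dab2, 0.42 for stab1 and -0.19 for lyve1a. The mean of all 19 was itself higher by 1.44 on the log2 scale in NFKB+ cells, and its removal shifted every gene by as much. Under the authors' scaling, the log2 differences of the 19 ran from -1.32 for tal1 to 2.14 for egfl7. Those of egfl7 and gpr182, at 2.14 and 2.10, were above that of stab1, at 2.01, so stab1 lay within the range of the list. The p-values below take the list mean as fixed and do not measure the spread between its genes. The remaining log2 difference of lyve1b was 1.36 ± 0.098 (SE), or 2.57-fold (limma adjusted p = 1.06e-06). Its values relative to that mean were -0.77, -0.68 and -0.73 in NFKB+ and -1.96, -2.19 and -2.12 in NFKB- libraries. Library 4 remained the highest of the NFKB- libraries for lyve1b, by 0.16.

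The remaining difference of stab2 was 1.02 ± 0.085 (SE), or 2.03-fold (limma adjusted p = 2.69e-06). Relative to the endothelial mean, stab2 lay at 1.04, 1.11 and 1.08 in NFKB+ and at 0.084, 0.051 and 0.020 in NFKB- libraries, so that library 4 stood 0.032 above library 5. The remaining difference of dab2 was 0.87 ± 0.088 (adjusted p = 1.23e-05, limma) and that of stab1 was 0.57 ± 0.096 (adjusted p = 4.94e-04, limma). For lyve1a it was -0.039 ± 0.32 (SE), with a 95% interval from -0.76 to 0.68 and a limma adjusted p of 0.922, and its sign turned without NFKB+ library 2 or NFKB- library 4, to 0.17 and 0.24. This interval holds the value for stab1 but none of those for lyve1b, stab2 and dab2. The 95% interval of dab2 itself starts at 0.67 and so overlaps that of lyve1a. On this scale 10.2% of all genes were called higher in NFKB+ cells, against 4 of the 5. The 251 genes so called all came from the 1347 that were higher under the authors' scaling, to which the 5 belong.

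**Figure D2:**
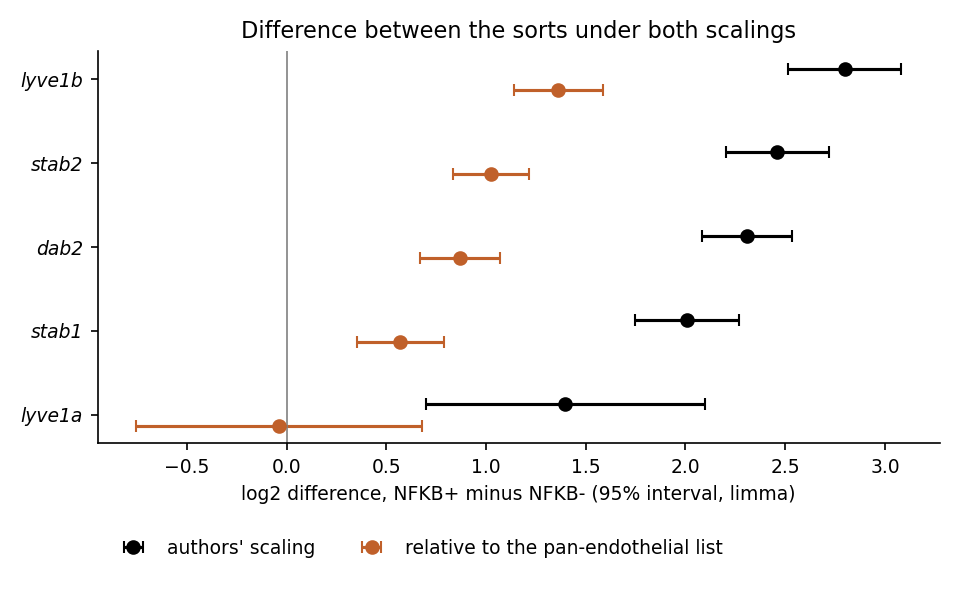
Log2 difference between NFKB+ and NFKB- cells for each gene with its 95% interval from limma, under the authors' scaling (black) and relative to the mean of the pan-endothelial list (orange). The orange points of lyve1b, stab2, dab2 and stab1 lie at 1.36, 1.02, 0.87 and 0.57 with intervals above 0, and that of lyve1a, at -0.039, has an interval that spans 0.

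Other venous and lymphatic genes that had passed the authors' filter went the same way as the 5. They were listed with earlier results of these data known, so their direction is no independent evidence. Of a list of 20, 14 genes were analysed and each was higher in NFKB+ cells, as were 54.5% of all genes analysed. The 14 had a median log2 difference of 2.22, and none changed direction relative to the pan-endothelial list. The largest excesses were those of ccbe1, a secreted factor needed for lymphatic growth through VEGF-C, at 2.86, and of nrp2b, flt4 and aplnra, at 2.71, 2.68 and 2.61. The gene flt4 encodes the VEGF-C receptor, nrp2b a neuropilin co-receptor and aplnra an apelin receptor. Leaving out the 3 genes that are also on the pan-endothelial list, 9 of 11 were called higher relative to that list, with a median of 0.88. Of all genes, 10.2% were called higher on that scale. The genes ephb4a and prox1a, which encode an Eph receptor of veins and a lymphatic transcription factor, were not called. For flt4 and nrp2b the relative differences were 1.24 ± 0.086 and 1.27 ± 0.11 (SE), next to 1.36 ± 0.098 for lyve1b.

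The remaining hyaluronan genes went both ways under the authors' scaling. Of 37 genes with a RefSeq match on a list of hyaluronan synthesis, breakdown and binding, 4 were analysed. The hyaluronidase genes hyal6 (Gene 791189) and hyal3 (Gene 100004557) were lower in NFKB+ cells. The level of hyal3 was 6.53, 6.37 and 4.77 in NFKB+ and 8.50, 8.62 and 8.30 in NFKB- libraries, a log2 difference of -2.59 ± 0.39 (SE; limma adjusted p = 1.17e-05). The level of hyal6 was low, at 3.22, 1.14 and 0 in NFKB+ and 6.03, 6.01 and 5.68 in NFKB- libraries. On the other side were tmem2, which encodes a cell-surface hyaluronidase, and ugdh, whose enzyme makes the UDP-glucuronate used for hyaluronan. They were higher by 1.09 ± 0.12 and 1.02 ± 0.12 (SE) on the log2 scale under the authors' scaling, but lower relative to the pan-endothelial list, where tmem2 lay at -0.34. Relative to that list all 4 hyaluronan genes were called lower, as were 50.4% of all genes.

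Other scavenger receptors were mostly higher in NFKB+ cells under the authors' scaling. Of 36 matched genes on that list 5 were analysed, 4 higher and 1 lower in NFKB+ cells. Their median log2 difference was 1.15, next to 1.08 over all genes analysed, of which 54.5% were higher and 45.5% lower. Relative to the pan-endothelial list none of the 5 was called higher and 2, colec12 and sort1b, were called lower, next to 10.2% and 50.4% of all genes. The mannose receptor gene mrc1b, a paralogue of mrc1a, was at 7.11, 7.35 and 6.78 in NFKB+ and at 4.33, 6.51 and 4.76 in NFKB- libraries. For mrc1b library 5, not library 4, was the highest on the NFKB- side, and the log2 difference of 1.88 ± 0.48 (SE; limma adjusted p = 0.00152) was 0.44 ± 0.57 relative to the endothelial mean. The gene timd4, whose product binds phosphatidylserine on dying cells, was higher by 1.67 ± 0.30 (SE). The scavenger receptor gene colec12 was higher by 1.11 ± 0.11 (SE) but lay at -0.32 ± 0.087 relative to the endothelial mean. The sorting receptor genes sort1a and sort1b went opposite ways, at 1.15 and -1.79.

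Genes of clathrin endocytosis, the route that Dab2 serves, were also mixed. Of 64 matched genes 12 were analysed, 9 of them higher and 3 lower in NFKB+ cells. The median over these was 1.16 on the log2 scale. Over all genes analysed it was 1.08, with 54.5% higher and 45.5% lower. The gene rab11bb, which encodes a GTPase of recycling endosomes, had the largest excess. Its level was 13.52, 13.47 and 13.56 in NFKB+ and 11.48, 11.20 and 11.17 in NFKB- libraries, a log2 difference of 2.24 ± 0.11 (SE; limma adjusted p = 1.13e-10). Relative to the pan-endothelial list it lay at 0.80 ± 0.093 (SE). On that scale 1 of the 12 genes was called higher, 4 were called lower and 7 were not called. Of all genes, 10.2% were called higher and 50.4% lower. The scaffold gene itsn2a, the myosin VI gene myo6b, whose product binds Dab2 in mammals, and the signalling gene dab2ipb were higher by 1.66, 1.48 and 1.22. The lower genes were amph, hip1rb and synj1, which encode proteins that bend, link or uncoat clathrin-coated membrane, at -2.52, -2.04 and -1.75.

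**Figure D3:**
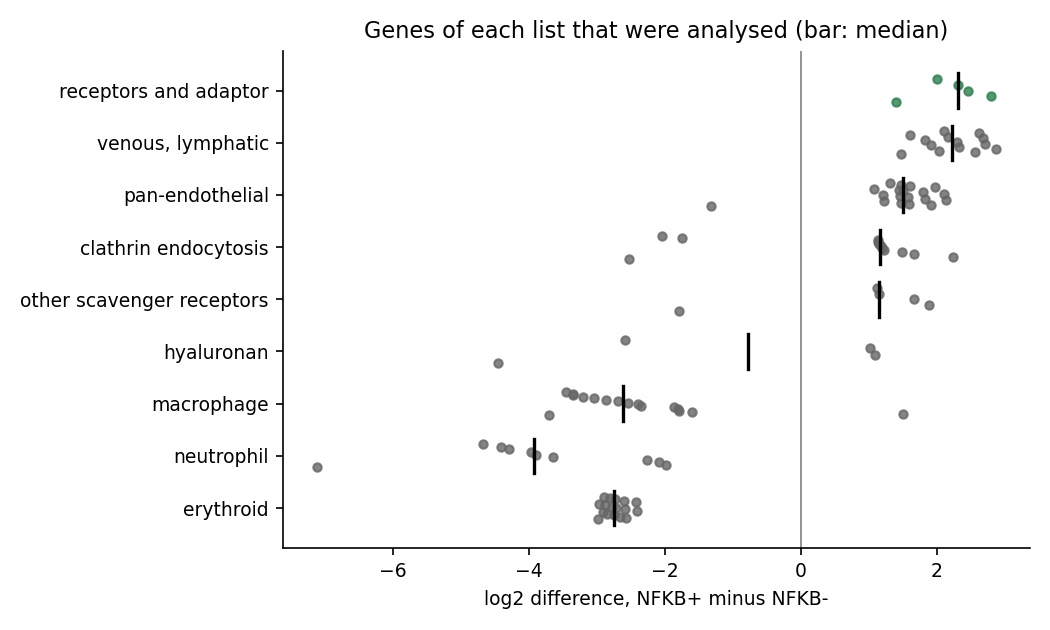
Log2 difference, NFKB+ minus NFKB-, under the authors' scaling for each gene analysed from the listed groups; points are genes, spread vertically for legibility, and bars are medians. The 5 receptor and adaptor genes (green, median 2.31) lie with the venous and lymphatic genes (2.22), and the macrophage, neutrophil and erythroid medians are -2.62, -3.93 and -2.76.

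In place of marco, markers of phagocytes gave the other side of the comparison. Of 33 matched macrophage and general leukocyte genes 16 were analysed, and 15 of these were lower in NFKB+ cells. The median log2 difference was -2.62. Their summed normalized reads ranged from 19892 to 22853 in NFKB+ and from 58347 to 70022 in NFKB- libraries. No gene of the list was at 0 in any library. The macrophage perforin gene mpeg1.1, named here as a defining marker and outside the rule for naming genes, was at 6.10, 6.81 and 6.52 in NFKB+ and at 8.61, 7.82 and 8.42 in NFKB- libraries. Among the largest falls in NFKB+ cells were those of fcer1gl, an adaptor of immune receptors, at -3.71, of the phagocyte oxidase gene cybb, at -3.36, and of the myeloid factor gene spi1b, at -3.35. The exception was apoeb, an apolipoprotein gene also expressed outside macrophages, which was 2.83-fold higher.

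The 10 neutrophil genes analysed, of 12, had a median of -3.93 and were lower without exception, and their summed reads ranged from 12272 to 14788 against 133616 to 165824. The 17 erythroid genes analysed were lower as well, each of them, at a median of -2.76. The part of these blood cell RNAs in the excess of lyve1b, stab1, stab2, dab2 and lyve1a was not tested. The 5 receptor and adaptor genes went the opposite way from 15 of the 16 macrophage genes analysed in the same libraries. Of all genes analysed 45.5% were lower in NFKB+ cells, and the authors' filter left no gene without a difference.

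The genes whose levels over the 6 libraries were most like each of the 5 were found by the root mean square distance of log2 levels after centring each gene, among 2355 other genes with a mean of at least 50 normalized reads. Because every gene in the table differs between the sorts, this distance is small for genes with a similar difference, and it is given as a description. For lyve1b the nearest gene was flt4, at a distance of 0.087, followed by the glycosyltransferase gene b3gnt7, the leukotriene receptor gene cysltr1, the glutamine synthetase gene glula and lmbr1l, the last at 0.12. For stab2 the nearest were ccdc102a, cfap58, the aquaporin gene aqp8a.1, kirrel3l and the neuropilin gene nrp2a, between 0.071 and 0.082. The genes cfap58 and kirrel3l were also the nearest to dab2, at 0.043 and 0.049, followed by snx8, mfng and npl. For stab1 they were the angiotensin receptor gene agtr2, the vascular factor gene etv2, il13ra2, lpar1 and klf7b, between 0.053 and 0.073.

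The nearest genes to lyve1a were farther away, between 0.18 and 0.21, and were zgc:194398, tmed8, panx1b, krt17 and ppl. The genes krt17 and ppl encode a keratin and periplakin, proteins of the epithelial cytoskeleton. The level of krt17 was 10.14, 9.26 and 10.31 in NFKB+ and 8.98, 7.70 and 8.27 in NFKB- libraries. Like lyve1a, krt17 was lowest in library 2 on the NFKB+ side and highest in library 4 on the NFKB- side. The level of ppl was 10.57, 9.90 and 10.60 against 9.60, 8.93 and 8.95, with the same order. Both genes were picked by likeness to lyve1a, so the shared order follows from that choice and is no separate evidence. Whether RNA of epithelial cells had a part in the lyve1a values was not tested. Between the 5 genes themselves, stab2 and dab2 were the closest, at 0.099, and lyve1a and lyve1b the farthest apart, at 0.77.

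**Figure D4:**
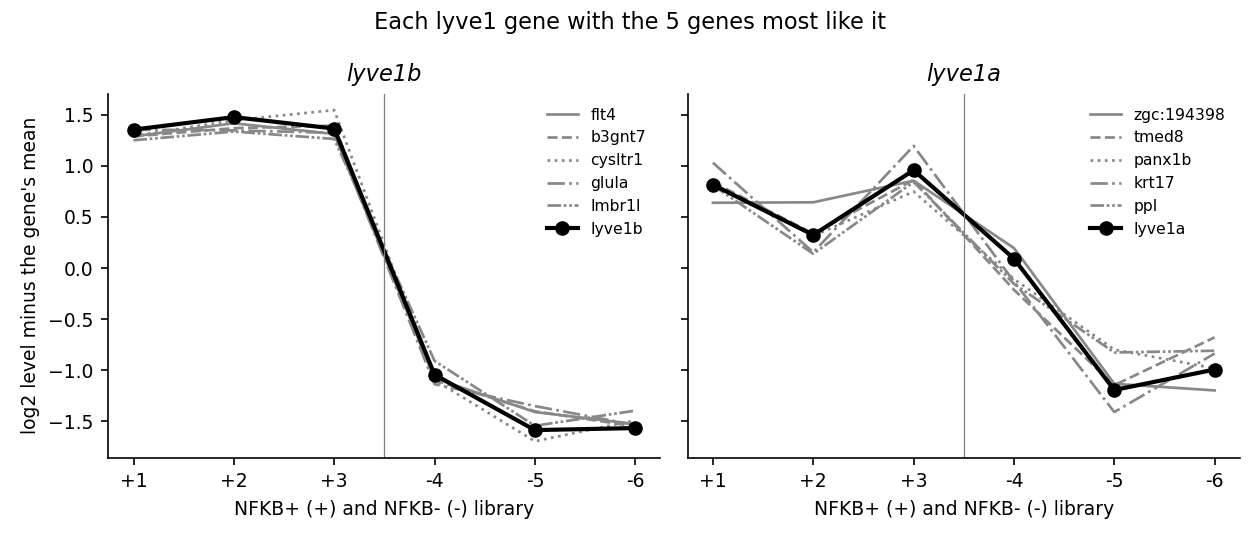
Level of lyve1b (left) and lyve1a (right) in each library after subtracting the gene's mean over the 6 libraries (black, log2 scale), with the 5 genes most like each (grey); numbers on the horizontal axis are the library numbers. The lyve1b curves lie within 0.12 of lyve1b by root mean square distance and are flat within NFKB+, whereas lyve1a and its nearest genes dip in library 2 or rise in library 4.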

How the data were processed

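RNA was sequenced from sorted zebrafish cells in 6 libraries, 3 per sort. Processing notes by the submitters list the tools cutadapt, STAR, HTSeq and DESeq2 and the build danRer10, without versions. No annotation is named. The columns the authors deposited hold, per the file headers, log2 levels per library and their mean, a log2 fold change, a signed fold score, and p-values before and after adjustment. Undoing the authors' log2 and subtracting 1 gave whole steps within 0.1 read for 100% of values under 1000 reads in every library, so reads could be recovered. The authors' limits of 2-fold and adjusted p 0.01 held for every gene kept, and 4 rows that repeat 2 gene names were left out of 2475.

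Columns name the sort but not the replicate. The labels call the samples biological replicates without saying whether embryos were pooled separately, so p-values measure the spread between these samples. Genes were fitted together with limma 3.58.1 in R 4.3.3 (lmFit, eBayes with trend; pseudocount 1, no low-value filter) with Benjamini-Hochberg adjustment over 2471 genes at 0.05, and the fit was tested on simulated data. The genes named were the 5 of the set, up to 4 per list and direction with the largest difference, and the 5 most like each, except 1 list gene that is not reported here. Members and lists were chosen with earlier results of these data known. The alternatives were pseudocount 10, a minimum of 50 reads, other scalings, limma without trend, limma-voom, array weights and leaving out each library.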

Additional observations from a re-analysis of the deposited data

How the results depend on the processing

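The plain differences of lyve1b, stab1, stab2 and dab2 kept direction and call under all 15 alternatives each, which the authors' selection on these libraries largely fixes. The median log2 difference of all genes moved by 0.49 when scaled to the same total, by -0.88 with median ratios, by -1.44 with the pan-endothelial list and by -1.20 with kdrl. The totals and the median ratios were taken over the filtered genes only, so these shifts depend on the authors' selection. For lyve1a, the difference of 1.40 fell to 0.52 with median ratios, -0.039 with the pan-endothelial list and 0.20 with kdrl, each short of the threshold (adjusted p over its alternatives from 1.68e-05 to 0.922), and ranged from 1.15 to 1.79 with 1 library left out. The pan-endothelial and kdrl scalings left 251 and 397 genes higher in NFKB+ cells in place of 1347. Relative to the pan-endothelial list, lyve1b, stab1, stab2 and dab2 kept their calls in 12 of 12 alternatives each, whereas lyve1a changed sign without being called, at 0.28 with array weights, 0.20 with kdrl and from -0.24 to 0.24 with 1 library left out (0.17 without NFKB+ library 2, 0.24 without NFKB- library 4). The kdrl scaling and the list without tal1, a gene also active in red cells, were added after seeing the data. No paired analysis was possible because column names number the libraries from 1 to 6 across both sorts, not by the labels' replicates. For lyve1a, with 81 to 543 reads per library, the spread between libraries exceeded the counting error.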
